A study of Mus musculus with 6 samples.

Results

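Mature neutrophils with high Ccl3 and Ccl4 are lung neutrophils in which these 2 chemokine transcripts made up at least 0.2% of a cell's transcripts. They were chosen from single-cell counts of unique molecular identifiers (UMIs, each standing for 1 captured transcript). A barcode needed at least 200 detected genes, at most 10% mitochondrial UMIs, at least 5% of UMIs from S100a8 and S100a9, and at least 2 UMIs of Csf3r, Cxcr2 and Ly6g together. It could hold no UMI of Cd79a or Cd3e and at most 3 of C1qa, C1qb and C1qc. The granule genes Ltf, Ngp and Camp had to stay under 0.5% of UMIs. Of 64428 barcodes in 6 libraries, 61736 passed the gene and mitochondrial limits, 12754 were mature neutrophils and 8910 were Ccl3/Ccl4-high. That is 13.8% of all barcodes. The remaining 3844 mature neutrophils, below 0.2%, are called Ccl3/Ccl4-low. Because the rule used Ccl3, Ccl4 and 13 other genes measured in these cells, differences between high and low cells are described and not tested.

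The study compared Nos1 knockout (KO, NOS1-/-) mice with wild-type (WT) mice after lipopolysaccharide (LPS), the endotoxin of Gram-negative bacteria. There were 2 KO LPS libraries, 2 WT LPS libraries, 1 KO vehicle library and 1 WT vehicle library. LPS was injected into the peritoneum at 10 mg/kg, lungs were taken 4 h after LPS or vehicle, and cells bearing the leukocyte marker CD45 were selected with a magnetic kit. The wild-type strain is written C65BL6 in the series text. The age of the mice, the KO's genetic background, the number of mice behind a library and whether animals were pooled are not given in the sources used here, so p-values reflect no more than how the libraries of a group differ, and that spread may be technical.

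Neutrophils leave the bone marrow with preformed granule proteins and are drawn into the lung vessels within hours of endotoxin. LPS is sensed by Toll-like receptor 4, which releases the transcription factor NF-kB from its inhibitor IkB alpha (the product of Nfkbia). NF-kB then turns on inflammatory genes and also its own brakes, such as Nfkbia and Tnfaip3. Ccl3 and Ccl4 encode the chemokines MIP-1 alpha and MIP-1 beta, which attract monocytes, T cells and NK cells. Nos1 encodes the neuronal nitric oxide synthase. In the RefSeq table used here, on build GRCm38.p6, promoters were read for Ccl3 and for some of the genes described below as higher beside it. These were Cxcl2, Nfkbia, Tnfaip3, Gadd45b, Il1b, Cd274, Il1rn and Saa3. A 60-base stretch upstream of the start is shown for Ccl3, for the 3 of these genes with a match at every start and for Gadd45b, which has none. Each is written 5′ to 3′ on the gene's strand, so that letters resembling an NF-kB site can be seen. Capitals mark matches, on either strand, to GGG followed by any 3 bases and then TTCC.
Ccl3, chr11:83649404-83649463, minus strand: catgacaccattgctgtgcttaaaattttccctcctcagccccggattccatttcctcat
Cxcl2, chr5:90903777-90903836, plus strand: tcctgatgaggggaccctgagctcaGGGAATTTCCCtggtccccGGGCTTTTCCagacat
Nfkbia, chr12:55492648-55492707, minus strand: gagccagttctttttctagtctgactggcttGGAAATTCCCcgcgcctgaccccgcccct
Tnfaip3, chr10:19015411-19015470, minus strand: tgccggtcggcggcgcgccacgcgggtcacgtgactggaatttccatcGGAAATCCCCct
Gadd45b, chr10:80930006-80930065, plus strand: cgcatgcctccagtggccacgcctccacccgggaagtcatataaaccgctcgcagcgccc
Within 250 bases upstream, Cxcl2 had 3 matches, 2 of which overlap on opposite strands, while Nfkbia and this start of Tnfaip3 had 1 each. Ccl3, Gadd45b, Il1b, Cd274 and Saa3 had none, and Il1rn had 1 match at 1 of its 3 starts. The same letters were in 4.65% of 32851 promoters and in the promoters of 513 of 7967 compared genes (6.44%). They were in 2 of the 15 genes with a promoter among those at least 2-fold higher in high cells. A match is a run of letters and not a shown binding site.

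**Figure D1:**
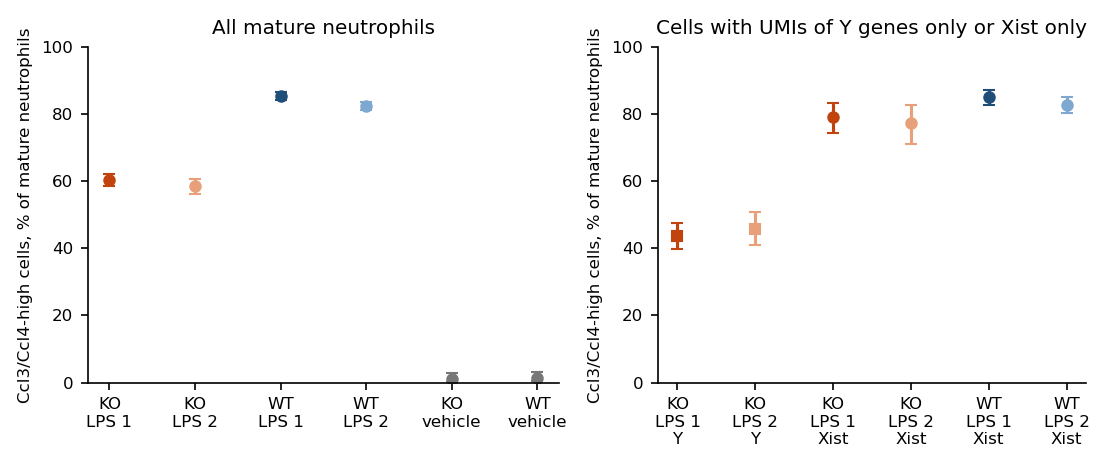
Ccl3/Ccl4-high cells as a percentage of mature neutrophils (y axis) in each library, with exact 95% binomial intervals. Left, all mature neutrophils, where KO LPS libraries sit at 60.5% and 58.5% and WT LPS libraries at 85.4% and 82.4%; right, LPS cells with UMIs of Y-linked genes and none of Xist (squares, KO) or of Xist and none of Y-linked genes (circles), where the Y-marked KO cells lie below 50% and the Xist-marked KO cells at 79.0% and 77.3%.

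The libraries held 55361477 to 115225284 UMIs. Nos1 gave 4 and 4 UMIs in the whole KO LPS libraries and 5 in the KO vehicle library, against 0 and 1 in WT LPS and 2 in WT vehicle. These counts are too few to check the knockout, and the KO libraries were not the lower ones. Sex-linked transcripts differed between groups. Y-linked transcripts (Ddx3y, Uty, Kdm5d and Eif2s3y) gave 667 and 442 UMIs in the high cells of KO LPS libraries, against 4 and 0 in WT LPS, while Xist, the transcript of the inactive X chromosome, was present in all 4 (889 and 706 UMIs in KO LPS, 2101 and 1984 in WT LPS). Cells with Y-linked UMIs were thus present in KO LPS and nearly absent from WT LPS. Results of the genotype comparison are given below also for Xist-marked cells, those with a Xist UMI and none of the Y-linked genes. Mitochondrial UMIs had a median of 0.383% and 0.417% in KO LPS high cells and 0.216% and 0.252% in WT LPS high cells, and their part in the genotype results was not tested. Of the barcode sequences, 885 (1.37%) occurred in more than 1 library. The LPS libraries of a genotype differed beyond sampling noise, with a chi-square of 4.62 per degree of freedom in KO and 3.17 in WT high cells.

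High cells were nearly absent without LPS and were the majority of mature neutrophils after it. Of the mature neutrophils, 1751 of 2895 (60.5%, exact 95% binomial interval 58.7 to 62.3%) were high in KO LPS 1 and 1169 of 1998 (58.5%, 56.3 to 60.7%) in KO LPS 2. In WT LPS 1 they were 2880 of 3372 (85.4%, 84.2 to 86.6%) and in WT LPS 2 they were 3101 of 3762 (82.4%, 81.2 to 83.6%). The KO vehicle library held 4 high cells of 346 (1.16%, 0.316 to 2.93%) and the WT vehicle library 5 of 381 (1.31%, 0.427 to 3.04%). Both LPS groups stood apart from vehicle, and both KO LPS libraries lay below both WT LPS libraries. These intervals cover counting error only. Vehicle and LPS libraries of a genotype also differed in sex marks, and that part was not tested. Of the Xist-marked mature neutrophils of KO vehicle 1 was high and 56 were low. WT vehicle held 0 Xist-marked ones, so LPS and sex cannot be told apart in WT.

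Over libraries the high share was 59.5 ± 1.40% in KO LPS and 83.9 ± 2.11% in WT LPS (SD, n = 2 each), a difference of -24.4 percentage points. The exact two-sided permutation test gave p = 0.333, the smallest that 2 against 2 libraries allow. With every cell thinned to 1000 UMIs the shares were 62.4% and 60.6% in KO LPS and 86.4% and 84.5% in WT LPS, leaving out 6, 11, 1 and 1 mature neutrophils that were shallower. The chemokine threshold was passed by few B cell barcodes. These barcodes were taken as a guide to the free RNA in a library, but transcripts that B cells make themselves were not told apart from it. Among B cell barcodes 2.27% and 1.51% passed the threshold in KO LPS and 2.44% and 2.92% in WT LPS. Their median depth was 3085, 2378, 4400.5 and 3155 UMIs, against 5126, 4187, 5755.5 and 4203 UMIs in high cells of the same libraries. High cells carried 93.6 and 70.2 Ccl3 and Ccl4 UMIs per cell in KO LPS and 129 and 93.0 in WT LPS, where B cell barcodes carried 2.34, 1.16, 2.90 and 3.29.

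The genotype difference in this share was smaller among cells of like sex marks. Among Xist-marked mature neutrophils 267 of 338 (79.0%) and 170 of 220 (77.3%) were high in KO LPS, against 824 of 969 (85.0%) and 796 of 961 (82.8%) in WT LPS. That is a difference of -5.80 points, with both KO libraries still below both WT libraries. The Y-marked mature neutrophils of KO LPS were high in 291 of 665 (43.8%) and 189 of 413 cells (45.8%). Within each KO LPS library, then, a smaller share of Y-marked than of Xist-marked cells was high. The exact intervals were 39.9 to 47.6% against 74.3 to 83.2% in KO LPS 1, and 40.9 to 50.7% against 71.2 to 82.6% in KO LPS 2. They cover counting error over cells and say nothing of variation between animals. WT LPS libraries had 3 and 0 Y-marked mature neutrophils, so sex and genotype cannot be told apart for the Y-marked cells. If the marks give the sex, Y-marked and Xist-marked cells of a KO LPS library came from different mice. Sex and animal then cannot be told apart within a library. Cells with both marks were 130 and 98 in KO LPS, with median depths of 17159 and 15271 UMIs.

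**Figure D2:**
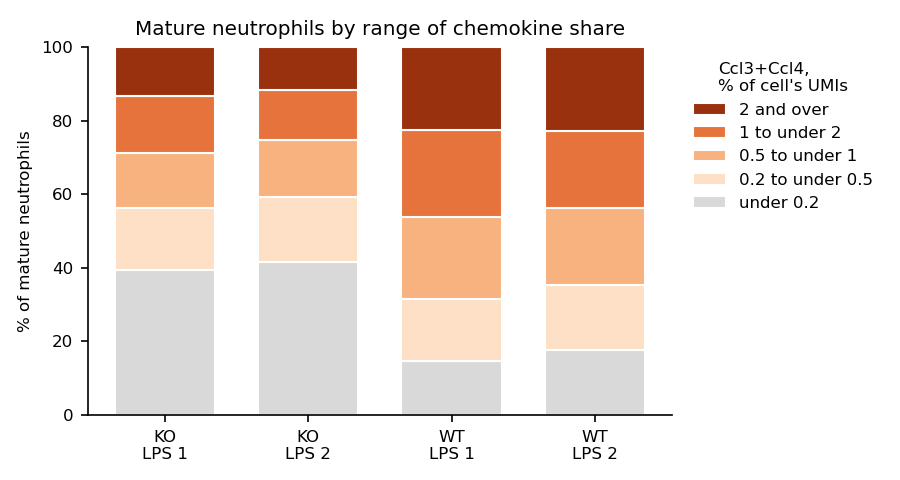
Mature neutrophils of the 4 LPS libraries by range of the Ccl3 plus Ccl4 share of their UMIs, as a percentage of mature neutrophils (y axis, stacked from the lowest range up). Grey is the low group, which is larger in both KO LPS libraries, and the darkest colour marks cells at 2% and over.

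Within the high cells the chemokine load spread widely. Its median was 0.942% and 0.839% of UMIs in KO LPS cells and 1.09% and 1.07% in WT LPS cells, and single cells reached 19.6%, 20.3%, 20.5% and 15.7%. High cells at 2% and over made up 22.2% and 19.9% of high cells in KO LPS and 26.4% and 27.7% in WT LPS. Those at 0.2 to under 0.5% made up 27.8% and 30.2% in KO LPS and 19.8% and 21.7% in WT LPS. WT LPS cells were thus shifted to the upper ranges. Both chemokines were usually present together: 92.8% and 89.4% of high cells in KO LPS and 96.7% and 94.9% in WT LPS had UMIs of both Ccl3 and Ccl4. Across high cells the 2 shares had a Spearman correlation of 0.40 and 0.35 in KO LPS and 0.45 and 0.45 in WT LPS, a description of cells that share a library.

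By the rule, Ccl3 and Ccl4 were high in every LPS library. Ccl3 had 3838 and 3540 CPM (UMIs of a gene scaled to the total UMIs of the summed cells) in KO LPS high cells and 4350 and 4396 CPM in WT LPS high cells, and Ccl4 had 7091 to 8489 CPM in KO LPS and 10087 to 10213 CPM in WT LPS. In low cells neither passed 561 CPM.

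The 0.2% limit cut through a continuous spread. From 0.2 to 0.25% there were 115 and 76 cells in KO LPS and 106 and 122 in WT LPS, and from 0.15 to 0.2% there were 120 and 78 in KO LPS and 119 and 144 in WT LPS. Their Cxcl2 levels were close, at 14495 and 12526 CPM in KO LPS and 10887 and 11740 CPM in WT LPS just inside, against 12528, 11699, 11512 and 11507 CPM just outside. The 9 high cells of the vehicle libraries were too few to test. Their summed Ccl3 was 839 CPM (exact 95% Poisson interval 384 to 1593) in KO vehicle and 6912 CPM (5130 to 9112) in WT vehicle, and Cxcl2 was 1585 CPM (923 to 2537) and 1521 CPM (759 to 2721). These intervals cover the counting of UMIs and not differences between cells. In WT vehicle 1 of the 5 high cells had 7.49% of its UMIs from Ccl3 and Ccl4, beside a median of 0.370%, so the Ccl3 sum there leans on few cells. Nos2, Il10 and Lipg had 0 UMIs in the high cells of both vehicle libraries. The upper ends of their exact 95% Poisson intervals were 343.9 CPM in KO vehicle and 509.9 CPM in WT vehicle. Vehicle high cells therefore cannot show a response to LPS.

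Of 6 neutrophil markers 5 were part of the rule and cannot check the label. Cxcl2, the other one, had a UMI in 99.4 to 99.7% of LPS high cells thinned to 1000 UMIs. It also had one in 97.1 to 98.4% of LPS low cells thinned alike, so its presence does not set high cells apart. S100a8 and S100a9 took a median 12.4% of UMIs in both KO LPS libraries and up to 13.5% in WT LPS. The sums of B cell, T cell and dendritic cell markers were low, while those of monocyte, NK cell and immature neutrophil markers were not. The 10 B cell markers summed to 50.8 and 38.2 CPM in KO LPS high cells and 34.2 and 43.3 CPM in WT LPS, with Cd79a at 0 by the rule, against 16659 to 17573 CPM in B cell barcodes. The 10 T cell markers summed to 8.05 to 20.5 CPM, the 8 dendritic cell markers to 7.30 to 25.2 CPM and the 16 alveolar macrophage markers to 521 to 657 CPM. The 10 classical monocyte markers summed to 1710 and 1938 CPM in KO LPS and 2258 and 2116 CPM in WT LPS, and the 10 NK cell markers, Ccl5 among them, to 1036 and 1253 CPM in KO LPS and 1995 and 1727 CPM in WT LPS. Both sums were lower in KO, and Ccl5 by itself was lower in KO (below). The 8 nonclassical monocyte markers summed to 1021 and 1017 CPM in KO LPS and 901 and 887 CPM in WT LPS, above the 241, 202, 135 and 169 CPM of B cell barcodes, and the 11 immature neutrophil markers to 1367 and 1496 CPM in KO LPS and 1306 and 1377 CPM in WT LPS. Single genes were a large part of some sums. Over the Xist-marked high cells of the 4 LPS libraries and the Y-marked ones of KO LPS, Ccl5 of the NK cell list had 624 to 2972 CPM. Nr4a1 of the nonclassical list had 421 to 747 CPM there, and Chil3 of the immature list 433 to 809 CPM. A high sum therefore does not show cells of that type. The part of these markers in the results below was not tested. Of 6 eosinophil markers Epx was at 0 in all 4 libraries.

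High cells held more transcripts of all 14 genes of NF-kB subunits and inhibitors, and of 14 of 17 anti-inflammatory feedback genes, than low cells of the same library. For this description, levels are CPM after TMM scaling over the 8 sums of high and low cells, and a gene counts as called when it was past 2-fold in 1 direction in all 4 LPS libraries. Of 10139 genes compared, 21 were called higher (0.207%) and 137 lower (1.35%) in high cells, and 2038 (20.1%) and 2094 (20.7%) kept 1 direction in all 4 libraries without the fold limit. TMM raised high over low cells by 0.26, 0.09, 0.32 and 0.21 on the log2 scale in KO LPS 1, KO LPS 2, WT LPS 1 and WT LPS 2, relative to total UMIs alone. With total UMIs 7 genes were called higher and 216 lower, 905 and 4021 kept 1 direction, and the median over all genes compared was -0.26 in place of -0.04. The rule used the same cells and counts, so nothing is read from these shares beyond the description. In KO LPS libraries the low cells also held more Y-marked cells (374 and 224, against 71 and 50 Xist-marked) than the high cells did (291 and 189, against 267 and 170), and that part was not tested.

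**Figure D3:**
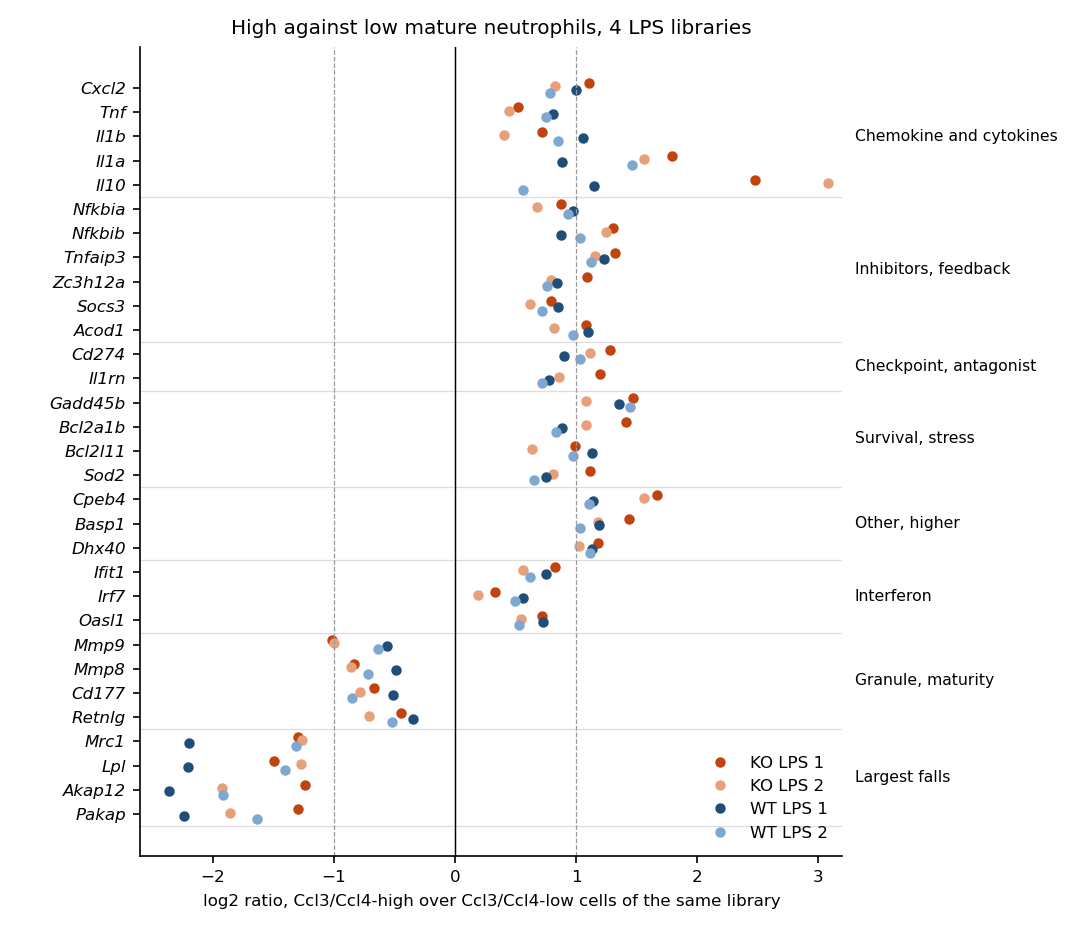
log2 ratio of Ccl3/Ccl4-high over Ccl3/Ccl4-low cells of the same library (x axis) for genes grouped by role, with 1 point for each LPS library. Dashed lines mark 2-fold; the genes from Cxcl2 to Oasl1 lie to the right of 0 in all 4 libraries, and those from Mmp9 to Pakap to the left.

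Among secreted signals, Cxcl2, a chemokine for neutrophils, was abundant in both kinds of cell. It stood at 19578 and 17509 CPM in high cells of KO LPS and 19839 and 19270 CPM in WT LPS, and at 9105, 9854, 9943 and 11167 CPM in the low cells. The groups of high and low cells did not overlap, with a median log2 ratio of 0.91. Il1b, the precursor of interleukin 1 beta, had 9762 and 8945 CPM in high cells of KO LPS and 12238 and 12136 CPM in WT LPS, against 5934, 6757, 5883 and 6720 CPM in low cells. Tumour necrosis factor, Tnf, had 205 and 184 CPM in KO LPS high cells and 186 and 194 CPM in WT LPS high cells, against 143, 135, 106 and 115 CPM in low cells. Both were higher in high cells of every library, with median log2 ratios of 0.79 for Il1b and 0.64 for Tnf. Of the 17 compared genes of the tumour necrosis factor, interleukin 1 and interleukin 6 families, 9 were higher in all 4 libraries and 1 was lower, around a median of 0.64 (6 and 3, around 0.42, with total UMIs). Csf3, the growth factor of neutrophils, was the one called, at a median log2 ratio of 2.15 and a level of at most 50.5 CPM. Of 15 other chemokines 8 were higher in all 4 libraries and 1 lower, with a median of 0.38 (6 and 1, and 0.16, with total UMIs).

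The inhibitors were higher as well. All 14 genes of NF-kB subunits and inhibitors kept the higher direction in 4 of 4 libraries, with a median of 0.67 beside -0.04 for all genes compared; with total UMIs 11 did, with a median of 0.44 beside -0.26. Nfkbia stood at 4435 and 4304 CPM in KO LPS high cells and 6427 and 6309 CPM in WT LPS high cells, against 2415, 2688, 3268 and 3298 CPM in low cells. Of 17 anti-inflammatory feedback genes 14 were higher in all 4 and none lower, also with total UMIs. They included Tnfaip3, the ubiquitin-editing enzyme A20, at 670, 606, 863 and 861 CPM in high cells against 268, 272, 368 and 395 CPM in low cells. Its median log2 ratio of 1.19 put it among the called genes. Socs3 (0.75), the interleukin 1 receptor antagonist Il1rn (0.82), the RNase Zc3h12a (0.82), the itaconate-producing enzyme Acod1 (1.03) and the checkpoint ligand Cd274 (1.07) were on the same side. Il10 was higher by 2.48 and 3.08 in KO LPS and 1.14 and 0.56 in WT LPS on the log2 scale, from low-cell levels of 5.44 and 3.09 CPM in KO and 30.9 and 42.0 CPM in WT.

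With at least 50 CPM in high cells, 5 genes were called higher. Gadd45b, a stress-response gene, led with a median log2 ratio of 1.40, at 1028 and 966 CPM in KO LPS high cells and 1616 and 1593 CPM in WT LPS high cells, against 371, 456, 630 and 584 CPM in low cells. Cpeb4, which binds mRNA to control its translation, followed at 1.35, then Tnfaip3 and the membrane protein gene Basp1 at 1.19 each and the helicase Dhx40 at 1.12. The groups did not overlap for any of the 5. With total UMIs all 5 were still higher in all 4 libraries, at medians from 0.92 to 1.16, but none passed 2-fold in each. Survival genes were on the higher side in 15 of 20 cases (10 with total UMIs), Bcl2a1b at 0.98 and the death-promoting Bcl2l11 at 0.99 among them. Interferon-stimulated genes were higher in all 4 libraries in 23 of 28 cases, but by less, with a median of 0.41 (Ifit1 0.69, Oasl1 0.63, Irf7 0.41). With total UMIs 21 were higher and 3 lower around a median of 0.18, and Oasl2 was mixed (-0.06). Pattern recognition and inflammasome genes were higher in 14 of 18 (10 with total UMIs), with Nlrp3, the sensor of the inflammasome, at 1.05.

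Genes of granule and secreted proteins were split. Of 17 compared, 8 were lower in all 4 libraries, 4 were higher, among them Saa3 (0.53) and Lcn2 (0.52), and 5 were mixed, with a median of -0.28 and none called (11 lower, 2 higher and a median of -0.49 with total UMIs). The gelatinase Mmp9 had 220 and 228 CPM in KO LPS high cells and 134 and 143 CPM in WT LPS high cells, against 445, 457, 198 and 222 CPM in low cells. The collagenase Mmp8 (-0.78), the surface protein Cd177 (-0.73) and Retnlg (-0.48) were lower too. Of the genes called lower, 4 passed 50 CPM in the low cells: Akap12 (-1.92), Pakap (-1.75), the lipoprotein lipase Lpl (-1.45) and the mannose receptor Mrc1 (-1.30). Lpl and Mrc1 are markers on the alveolar macrophage list, whose 16 genes summed to 620 and 657 CPM in KO LPS high cells and 521 and 571 CPM in WT LPS high cells, against 1166, 892, 1348 and 1125 CPM in low cells. The 8 endothelial markers summed to 84.1, 59.8, 60.8 and 63.5 CPM in high cells and 129, 111, 217 and 158 CPM in low cells. When barcodes with 2 or more UMIs of other cell types were left out, the count of genes called lower was 17 in place of 137, and that called higher 39 in place of 21.

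**Figure D4:**
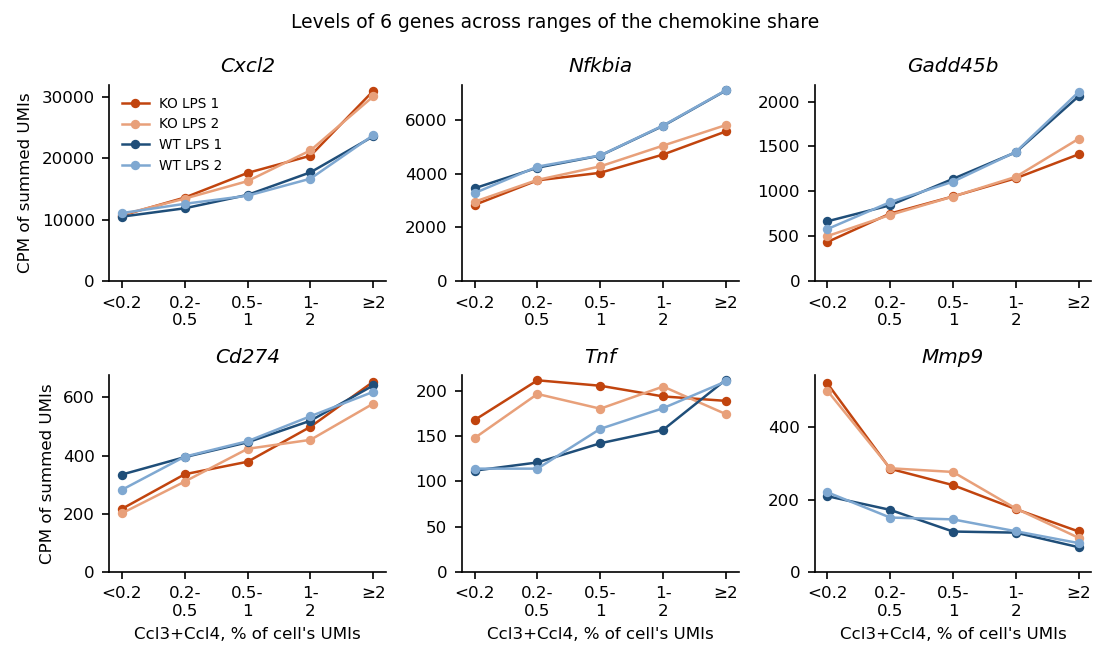
Levels of 6 genes (y axis, CPM of summed UMIs without TMM scaling) across 5 ranges of the Ccl3 plus Ccl4 share (x axis) in the 4 LPS libraries. Cxcl2, Nfkbia, Gadd45b and Cd274 step up in every library, and Mmp9 steps down. Tnf is highest in the top range in both WT LPS libraries but not in KO LPS.

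The association was graded within the high cells. Cxcl2, Nfkbia, Gadd45b, Cd274, Il1b, Il1rn, Socs3, Tnfaip3 and Sod2 were higher at each step through the 5 ranges of chemokine share in all 4 libraries. Cd274 for instance had a top range 1.59 and 1.52 above the lowest range on the log2 scale in KO LPS, and 0.94 and 1.13 in WT LPS. Mmp9, Mmp8, Cd177 and Alox5ap, which encodes the activator of leukotriene synthesis, were lower at each step in all 4. Ccl3 and Ccl4 shares order the ranges themselves and every transcript is a part of the same total, so these series are descriptions without a test. Across mature neutrophils the chemokine share and Cxcl2 had a Spearman correlation of 0.58 and 0.55 in KO LPS and 0.45 and 0.43 in WT LPS, while that with the cell's depth lay between -0.06 and 0.07.

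KO LPS high cells held less of most interferon-stimulated and chemokine genes tested than WT LPS high cells, and more Lyst and Itga4. Such differences were not confined to high cells. Without TMM scaling, Lyst had 210 and 219 CPM in KO LPS low cells and 35.4 and 34.9 CPM in WT LPS low cells. Itga4 was also higher in KO low cells. Irf7 (1165 and 1169 against 1587 and 1525 CPM) and Cxcl10 (2077 and 2145 against 5185 and 4621 CPM) were lower there, while Ccl2 overlapped. The comparison of high cells used sums per library (1751 and 1169 KO cells, 2880 and 3101 WT cells). It applied the quasi-likelihood test of edgeR at a Benjamini-Hochberg adjusted p of 0.05, 2 against 2 libraries. Of 10828 genes tested, 2007 were called (18.5%), 897 higher (8.28%) and 1110 lower (10.3%) in KO; 128 of the higher and 131 of the lower passed 2-fold. In 59.7% of all genes the libraries of the genotypes did not overlap. TMM scaling shifted KO minus WT by 0.25 on the log2 scale relative to total UMIs alone. With total UMIs the calls were 2535 higher and 448 lower, and the median over all genes 0.26 in place of 0.01. In Xist-marked cells, which leave 267 and 170 KO and 824 and 796 WT cells, 176 genes were higher and 197 lower. That fit had its own TMM scaling, with a different shift relative to total UMIs. Its log2 values are therefore not directly comparable in size with those of all high cells. Of the 1938 called genes that could be fitted there, 1838 kept their direction and 325 their call. Leaving out WT LPS 1 gave 784 calls and leaving out WT LPS 2 gave 1008. Among genes within 10 Mb of Nos1, 37 of 169 (21.9%) were called.

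**Figure D5:**
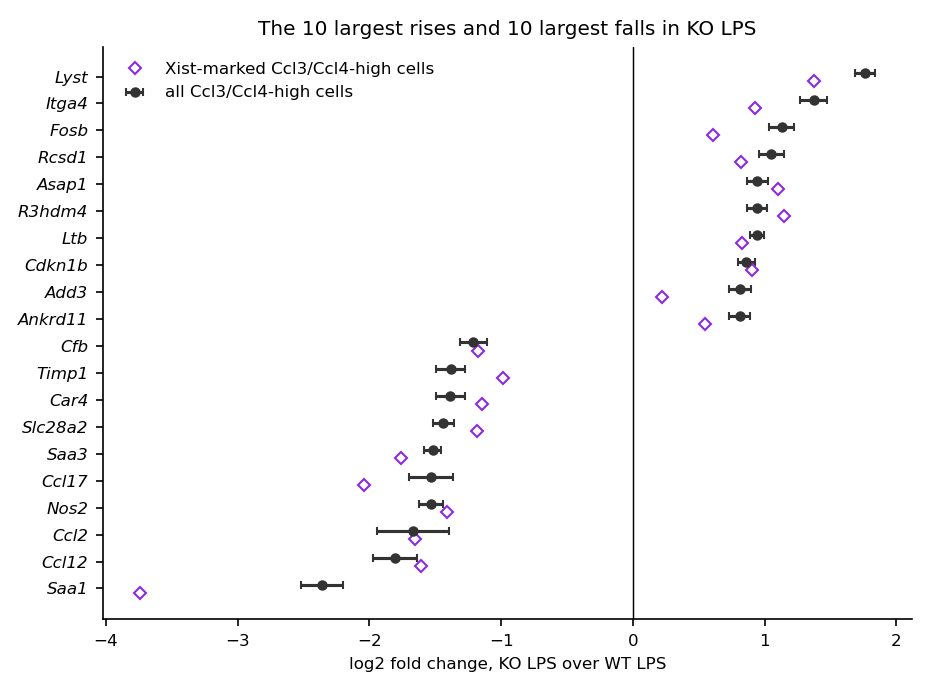
log2 fold change of KO LPS over WT LPS (x axis) in Ccl3/Ccl4-high cells for the genes named by rule, with filled circles and standard errors for all high cells and open diamonds for Xist-marked high cells. All 20 genes keep their direction in Xist-marked cells; Add3 moves to 0.22 and Saa1 to -3.74.

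Among chemokines, 12 of 15 tested were lower in KO and Ccl6 was higher, with a median of -0.91 (6 lower and none higher in Xist-marked cells, median -0.73). Ccl2, which attracts monocytes, had 20.6 and 46.1 CPM in KO LPS and 114 and 86.1 CPM in WT LPS (log2 -1.67 ± 0.27, edgeR adjusted p = 0.00327). Ccl12 (-1.81), Ccl17 (-1.53) and Ccl5 (-1.04) were lower as well, though Ccl5 stood at -0.48 in Xist-marked cells, where it did not pass (edgeR adjusted p = 0.0752). For Ccl2, Ccl12, Ccl17 and Ccl22, however, B cell barcodes carried at least as many UMIs per cell as high cells in 1 or more libraries. Free RNA may have been present at these levels, though transcripts of the B cells themselves were not told apart from it. Cxcl10, which draws T cells and is induced by interferons, stood well above B cell barcodes, at 6.16 to 9.97 times their UMIs per cell. It had 5081 and 4208 CPM in KO LPS and 7820 and 7410 CPM in WT LPS (-0.72 ± 0.09, edgeR adjusted p = 0.000816), and stood at -0.20 in Xist-marked cells (edgeR adjusted p = 0.497). With total UMIs as the scaling 11 of 15 chemokines were lower and 3 higher. Cxcl2 did not pass the test (-0.08 ± 0.07, edgeR adjusted p = 0.499), and stood at 0.17 with total UMIs, where it was called.

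Cytokines changed in parts. Il1b was lower (-0.39 ± 0.07, edgeR adjusted p = 0.00442), a call not kept in Xist-marked cells (-0.20) or without either WT LPS library. Also lower were Il18 (-0.76), Il27 (-1.28) and Csf3 (-0.78), though Csf3 stood at 0.20 in Xist-marked cells. Tnfsf9 was the fifth of 18 to fall. Ltb, which encodes lymphotoxin beta, was higher, at 365 and 365 CPM in KO LPS and 188 and 191 CPM in WT LPS (0.94 ± 0.06, edgeR adjusted p = 3.11e-05; 0.83 in Xist-marked cells). Without TMM scaling, Ltb had 549 and 480 CPM in Y-marked KO LPS high cells and 231 and 294 CPM in Xist-marked ones. The part of the sex marks in this rise was not tested. Il23a was higher too (1.02 ± 0.14) from low levels, at 14.6 and 12.8 CPM in KO LPS and 7.18 and 6.31 CPM in WT LPS, and did not pass in Xist-marked cells (1.45, edgeR adjusted p = 0.0604). Tnf had 205 and 184 CPM in KO LPS and 186 and 194 CPM in WT LPS, so the groups overlapped (0.03 ± 0.07, edgeR adjusted p = 0.781; 0.28 and called with total UMIs).

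Of 11 chemokine and chemoattractant receptors 6 were lower and none higher (3 lower and 4 higher with total UMIs, 3 lower and none higher in Xist-marked cells, and 3 lower and 1 higher without WT LPS 1). They included Ccr7 (-1.80; -1.56 in Xist-marked cells, also called), the leukotriene receptor Ltb4r1 (-0.47) and Ptafr, the receptor of platelet-activating factor (-0.34). In Xist-marked cells Ltb4r1 (-0.44, edgeR adjusted p = 0.0618) and Ptafr (-0.22, edgeR adjusted p = 0.295) did not pass, nor did Ptafr with total UMIs (-0.093, edgeR adjusted p = 0.213). Cxcr4 did not pass (0.39 ± 0.16, edgeR adjusted p = 0.125) and stood at 42.0 and 29.1 CPM in KO LPS and 25.1 and 30.2 CPM in WT LPS. Of 14 adhesion genes 4 were lower and 2 higher (1 and 7 with total UMIs, 1 and 1 in Xist-marked cells, and 1 and 2 without WT LPS 1). Itga4, integrin alpha 4, was higher, at 72.4 and 89.2 CPM in KO LPS and 29.8 and 32.0 CPM in WT LPS (1.37 ± 0.10, edgeR adjusted p = 8.88e-05; 0.93 in Xist-marked cells, also called). B cell barcodes carried more Itga4 UMIs per cell than high cells in all 4 libraries. Whether these were free RNA or transcripts of the B cells themselves was not tested. Ceacam1 was higher as well, and Cd47 and Icam1 were among those lower, none of the 3 called in Xist-marked cells; Icam1 lay at the threshold (-0.20 ± 0.06, edgeR adjusted p = 0.0495) and at 0.041 with total UMIs as the scaling.

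Most anti-inflammatory feedback genes were lower in KO. Of 17 anti-inflammatory feedback genes 14 were lower and Dusp5 was higher, with a median of -0.41. In Xist-marked cells Il10 was the one call, and the median was -0.16; with total UMIs 9 were lower and 1 higher. Il10, an anti-inflammatory cytokine, had 30.9 and 27.9 CPM in KO LPS and 68.9 and 62.2 CPM in WT LPS (-1.15 ± 0.09, edgeR adjusted p = 9.95e-05; -0.71 in Xist-marked cells, adjusted p = 0.0412). Il1rn had 2736 and 2400 CPM in KO LPS and 4097 and 3926 CPM in WT LPS (-0.65 ± 0.07, edgeR adjusted p = 0.00054). Socs3 (-0.56), Socs1 (-0.41) and Cd274 (-0.48) were lower, and stood at -0.18, -0.075 and -0.20 in Xist-marked cells, where none of the 3 passed. With total UMIs as the scaling they stood at -0.31, -0.16 and -0.23 in all high cells. Without TMM scaling, Xist-marked cells had 1418 and 1366 Socs3 CPM in KO LPS and 1778 and 1817 in WT LPS. Socs1 had 294 and 259 CPM against 350 and 314 CPM there, and Cd274 498 and 412 CPM against 608 and 586 CPM. Of 14 NF-kB subunits and inhibitors 6 were lower, Nfkbia at -0.55 ± 0.06 (edgeR adjusted p = 0.000448) among them, and Rel was higher. In Xist-marked cells Rel alone was called, and the list's median was 0.01 in place of -0.21; with total UMIs it was 0.03, with 4 higher and 3 lower. Of the 21 genes called higher in high than low cells, 10 fell and none rose in KO, while of 100 tested genes called lower in high cells 8 fell and 2 rose. Over all genes tested 10.3% fell and 8.28% rose. These gene sets come from the contrast that the rule defines, and KO high cells had a lower median chemokine share. Nothing is read from the counts, and the part of that share was not tested.

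Interferon-stimulated genes were lower in KO LPS almost throughout. Of 28 tested, 24 fell and none rose, with a median of -0.58; with total UMIs 21 fell and 2 rose around -0.33. Irf7, a transcription factor of the interferon response, had 1249 and 1213 CPM in KO LPS and 2218 and 2161 CPM in WT LPS (-0.84 ± 0.06, edgeR adjusted p = 5.7e-05). Ifit1, which binds viral RNA, had 3267 and 3027 CPM in KO LPS and 5685 and 5434 CPM in WT LPS (-0.83 ± 0.07, edgeR adjusted p = 0.000107). Neither overlapped between genotypes. In Xist-marked cells 7 of 28 fell and Slfn1 rose, with a median of -0.33; Irf7 stood at -0.68 (edgeR adjusted p = 0.00899), Gbp3 at -0.72 and Oasl2 at -0.67. Pattern recognition and inflammasome genes fell in 9 of 18 cases, and Clec4e and Clec4n rose; with total UMIs 3 fell and 3 rose, in Xist-marked cells 2 fell, and without either WT LPS library 4 fell. Casp1, the protease that activates interleukin 1 beta, had 111 and 116 CPM in KO LPS and 200 and 201 CPM in WT LPS (-0.83 ± 0.06, edgeR adjusted p = 6.89e-05; -0.56 in Xist-marked cells).

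Among genes with at least 50 CPM and no overlap between genotypes, the 10 largest falls included Saa3 and Nos2, which also stood above B cell barcodes. Saa3 (GRCm38, chr7:46711998-46715700, minus strand), a serum amyloid protein of the acute phase, had 2963 and 3193 CPM in KO LPS and 8899 and 8704 CPM in WT LPS (-1.52 ± 0.07, edgeR adjusted p = 4.78e-06). The fall was -1.76 in Xist-marked cells. Their CPM, given without TMM scaling unlike those above, were 2739 and 2746 in KO LPS and 10503 and 10641 in WT LPS. Y-marked KO cells were at 3113 and 3807 CPM, also without TMM scaling. High cells carried 6.34 to 14.6 times the Saa3 UMIs of B cell barcodes. Nos2 (chr11:78920787-78960254, plus strand), the inducible nitric oxide synthase, had 86.9 and 70.0 CPM in KO LPS and 232 and 224 CPM in WT LPS (-1.53 ± 0.09, edgeR adjusted p = 3.11e-05; -1.41 in Xist-marked cells), with 15.2 to 95.1 times the UMIs of B cell barcodes. Neither gene overlapped between genotypes, in all high cells or in Xist-marked ones. Both were lower in KO in low cells too. Without TMM scaling, Saa3 had 2576 and 2543 CPM in KO LPS low cells and 5772 and 5749 CPM in WT LPS low cells. Nos2 had 75.2 and 76.2 CPM against 192 and 194 CPM there. Of 6 nitric oxide and arginine genes 5 were lower, the others being Arg2, Ass1, Slc7a2 and Gch1 (3 of 6 with total UMIs or without WT LPS 1, 2 of 6 in Xist-marked cells). The nucleoside transporter Slc28a2 (-1.44) and complement factor B, Cfb (-1.21), fell, and so did Saa1 (-2.36), Car4 (-1.38) and Timp1 (-1.38), whose UMIs per cell were no higher than in B cell barcodes in at least 1 library. Timp1 did not pass in Xist-marked cells (-0.98, edgeR adjusted p = 0.0588). Lipg, endothelial lipase, was lower at 671 and 665 CPM in KO LPS and 1180 and 1119 CPM in WT LPS (-0.79 ± 0.06, edgeR adjusted p = 7.98e-05; -0.56 in Xist-marked cells).

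The rises were led by genes at moderate levels. Lyst, whose product regulates lysosome-related organelles, had 103 and 113 CPM in KO LPS and 32.3 and 30.7 CPM in WT LPS (1.76 ± 0.08, edgeR adjusted p = 4.78e-06; 1.38 in Xist-marked cells). The transcription factor Fosb was 1.13 higher, Rcsd1 1.05, the signalling adaptor Asap1 and R3hdm4 0.94 each, the cell cycle inhibitor Cdkn1b 0.86, Add3 0.81 and Ankrd11 0.81. In Xist-marked cells Fosb (0.61, edgeR adjusted p = 0.0588) and Add3 (0.22, edgeR adjusted p = 0.472) no longer passed. Without TMM scaling, Lyst had 149 and 166 CPM in Y-marked KO LPS high cells and 74.9 and 87.5 CPM in Xist-marked ones. Fosb had 112 and 132 against 47.1 and 49.6 CPM, and Add3 87.4 and 72.6 against 31.9 and 33.3 CPM. Rcsd1 and Cdkn1b were also higher in Y-marked cells, while Itga4, Asap1, R3hdm4 and Ankrd11 overlapped. The part of the sex marks in these rises was not tested. B cell barcodes carried at least as many Lyst, Rcsd1 and Ankrd11 UMIs per cell as high cells in 1 or more libraries. Free RNA and the B cells' own transcripts were not told apart here either. Of 20 granule and secreted protein genes 4 rose and 8 fell (8 and 7 with total UMIs). The risers were Mmp8 (0.39), Mmp9 (0.69), Retnlg (0.29) and Pglyrp1 (0.55), all 4 of them called in Xist-marked cells too. The calls of Mmp8 and Retnlg were lost without WT LPS 1 (0.37 and 0.27) and without the highest doublet scores (0.29 and 0.14), and that of Retnlg also without WT LPS 2 (0.30). Mmp9 had 220 and 228 CPM in KO LPS and 134 and 143 CPM in WT LPS. The falls included haptoglobin, Hp (-0.63), and Wfdc17 (-0.66), neither called in Xist-marked cells.

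Metabolic and stress lists were split, and total UMIs as the scaling turned several of them towards KO: 11 rises and 2 falls for glycolysis and hypoxia, 5 and 6 for stress and iron, 5 and 4 for survival, and 13 and 2 for immediate-early genes. Of 22 glycolysis and hypoxia genes 8 rose and 6 fell, the glucose transporter Slc2a3 at 0.99 and the regulator of glycolysis Pfkfb3 at -0.78; these 2 were the calls left in Xist-marked cells. Of 17 stress and iron genes 9 fell and Txnrd1 and Ninj1 rose. Hmox1, which degrades haem, fell by 0.92 on the log2 scale, with 162 and 154 CPM in KO LPS and 314 and 283 CPM in WT LPS (edgeR adjusted p = 8.88e-05; -1.11 in Xist-marked cells). Of 20 survival and cell death genes 9 fell and Pmaip1 rose, and none was called in Xist-marked cells. Of 25 immediate-early genes 6 fell and 4 rose (Fosb, Egr1, Egr3 and Klf4), again with none called in Xist-marked cells. Lipid mediator genes gave 2 rises (Alox5, Alox5ap) and 2 falls (Ptges, Lipg) of 11, Alox5 not called in Xist-marked cells. NADPH oxidase genes gave 1 rise and 1 fall of 7, the fall being Rac2, and of 6 neutrophil identity genes Mmp9, Retnlg and G0s2 rose and Il1r2 fell, of which Mmp9 and Retnlg were called in Xist-marked cells.

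Whether the genotype difference was itself larger or smaller in high than in low cells was tested with a state by genotype term on 8 sums, with the library as a block. The 0.2% cut left unlike low cells in the genotypes. Those with no Ccl3 or Ccl4 UMI were 30.9% and 40.0% of low cells in KO LPS and 5.89% and 10.9% in WT LPS. Low-cell Ccl3 was 358 and 337 CPM in KO LPS and 531 and 561 CPM in WT LPS. The part of this in the interaction was not tested. Of 10139 genes 96 were called (0.947%), 65 with a more positive difference in high cells (0.641%) and 31 with a more negative one (0.306%). Il10 was among the first (1.85 ± 0.26, edgeR adjusted p = 0.00161): it was lower in KO in low cells, at 5.44 and 3.09 CPM against 30.9 and 42.0 CPM in WT, by more than in high cells. Cxcl3 was 1.28 ± 0.13 more positive (edgeR adjusted p = 6.27e-05). Wfdc17, a secreted protein of neutrophils, was -1.08 ± 0.17 (edgeR adjusted p = 0.00324), with 4089 and 3384 CPM in KO LPS and 6104 and 5676 CPM in WT LPS high cells, against 3803 and 3854 CPM in KO and 2957 and 2768 CPM in WT low cells. KO cells were thus below WT in the high group and above it in the low group, but without WT LPS 1 the call was lost (-1.10). Leaving out WT LPS 2 gave 285 calls. In Xist-marked cells edgeR called 0 of 7583 tested, 337 having an unadjusted p under 0.05, and 83 of the 92 called genes that could be fitted kept their direction.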

How the data were processed

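Cells from 6 libraries were measured by 10x Genomics single-cell RNA sequencing. The authors deposited raw UMI counts per gene and barcode as sparse matrices; Cell Ranger 6.1.0, Seurat 4.1.0, R 4.1.3 and the build mm10 are named in the submitters' processing notes. Of the files' 32285 gene IDs, 32158 were found in GENCODE M21, which gave gene positions.

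The members and gene lists were chosen with earlier results of these data known. Counts were summed per library over high and over low cells, and KO LPS was set against WT LPS with edgeR 4.0.16 (quasi-likelihood test, filterByExpr, TMM, Benjamini-Hochberg adjustment, threshold 0.05) in R 4.3.3; scanpy 1.11.5 and Python 3.11.15 were used for cells. Standard errors are the absolute log2 fold change divided by the square root of F. The state by genotype term was fitted on 8 sums with library as a block. The 15 genes of the rule were left out of tests. High against low cells were compared by CPM after TMM with a prior of 1 count, in place of CPM alone. LPS against vehicle was not tested because each vehicle library held under 30 high cells. Scripts were tested on simulated data.

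Named genes were the 10 largest rises and falls in KO with at least 50 CPM in the higher genotype and no overlap, the called genes of high against low cells with at least 50 CPM, the 3 smallest p in each direction of the interaction, up to 4 members per list and comparison, and a fixed set including Cxcl2, Tnf, Il1b, Il10 and Nos2. Other list members, named to account for small counts, were chosen after their values were seen. Scrublet's automatic threshold called no doublets in 4 of 6 libraries and was not used, so no doublets were removed; removing the highest scores is an alternative. B cell barcodes needed at least 3 UMIs of their defining genes. Library totals ran from 55361477 to 115225284 UMIs, and intervals cover counting error only. Alternatives included DESeq2 1.42.0, other thresholds and scalings, leaving out each library, and, chosen after seeing the data, Xist-marked cells, cells matched for chemokine share and total UMIs as the scaling. A few members of the lists are counted but not reported by name.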

Additional observations from a re-analysis of the deposited data

Results flagged for a closer look

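The genotype difference was itself different in high and low cells for 96 genes by the edgeR interaction test, and the 3 genes with the smallest p in each direction are given here. H2-Ab1, an MHC class II gene, had a difference of 1.80 ± 0.17 on the log2 scale, with 37.6 and 45.0 CPM in KO LPS and 78.1 and 57.0 CPM in WT LPS high cells, against 11.5 and 14.5 CPM in KO and 84.4 and 62.5 CPM in WT low cells. H2-Aa had 1.65. B cell barcodes carried many more UMIs per cell of both genes than high cells did, and the B cells' own transcripts were not told apart from free RNA. Within high cells KO minus WT was -0.73 for H2-Ab1 and -0.81 for H2-Aa, and turned to 0.90 and 0.44 without barcodes with UMIs of other cell types, where the difference between states was 2.09 and 1.72. Orm1, an acute-phase protein gene, had 1.38 ± 0.14, with 185 and 136 CPM in KO LPS and 261 and 272 CPM in WT LPS high cells, against 105 and 60.1 CPM in KO and 324 and 387 CPM in WT low cells. On the negative side stood Wfdc17 (-1.08), Prok2 (-1.10) and Lrg1 (-0.88). Lrg1 had 690 and 685 CPM in KO LPS and 886 and 878 CPM in WT LPS high cells, against 1085 and 1179 CPM in KO and 738 and 839 CPM in WT low cells. No gene was called in Xist-marked cells. The parts of the sex marks and of the unlike chemokine shares of low cells in these differences were not tested.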

How the results depend on the processing

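Depth and cell numbers limit the Xist-marked comparison, which rests on 267 and 170 KO and 824 and 796 WT high cells. For KO LPS against WT LPS, 2007 genes were called, 897 higher and 1110 lower. The counts were 1335, with 481 higher, by the DESeq2 Wald test; 1245, with 495 higher, without the highest Scrublet scores; 915 (418 higher, 497 lower) at a matched chemokine share; 373 (176 higher, 197 lower) in Xist-marked cells; and 2535 higher and 448 lower with total UMIs as the scaling. Leaving out 1 library gave 784 to 2175 calls, 291 to 881 higher and 493 to 1294 lower. A lone library left in a group is assumed to vary like the other group's. The share difference of -24.4 points was -22.4 at 0.1%, -5.80 in Xist-marked cells, and -25.9 to -22.9 leaving out 1 library.

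The interaction's 96 calls (65 higher, 31 lower) became 263 (132, 131) with no filter, 507 (243, 264) at 0.5%, 678 (270, 408) without the highest Scrublet scores, 606 (370, 236) without barcodes with UMIs of other cell types, 247 (173, 74) with total UMIs and 0 in Xist-marked cells. DESeq2's Wald test gave 27 higher and 61 lower. Leaving out 1 library gave 99 to 285 calls, 64 to 183 higher and 15 to 102 lower. For high against low cells, 21 higher genes became 33 at 0.1%, 39 without barcodes with UMIs of other cell types, 170 against low cells with no Ccl3 or Ccl4 UMI, 7 with total UMIs, 12 as a mean over cells, and 29 to 44 leaving out 1 library. The 137 lower genes became 78 at 0.5%, 17 without barcodes with UMIs of other cell types, 414 in Xist-marked cells, 216 with total UMIs, 84 as a mean over cells, and 148 to 244 leaving out 1 library. The cause of these changes was not tested.

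The replicate numbers gave no sign of pairing (correlation of deviations -0.056 over 10841 genes). With the replicate number as a block the genotype comparison had 1998 calls, 1881 of them shared, and the interaction 556 (263 higher, 293 lower). Directions turned for H2-Ab1 (0.90), H2-Aa (0.44) and Mt1 (0.031) without barcodes with UMIs of other cell types, for Csf3 (0.20) and Sod2 (0.11) in Xist-marked cells, for Icam1 (0.092) at a matched chemokine share, and for Icam1 (0.041) and Sod2 (0.018) with total UMIs. Without TMM scaling, Sod2 in Xist-marked cells had 3181 and 3002 CPM in KO LPS, below the 3261 and 3236 CPM of WT LPS. Csf3 overlapped there, at 52.8 and 34.6 CPM in KO LPS and 41.8 and 48.1 CPM in WT LPS. LPS against vehicle gave no value under any alternative.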
